A study of Dorcoceras hygrometricum with 51 samples.

Results

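The rapid drying of newly acclimated leaves of Boea hygrometrica (Dorcoceras hygrometricum), a resurrection plant, is held in 6 of the 39 RNA-seq libraries of the series, 3 libraries named AD and 3 named A, which were chosen by their labels alone. Both groups came from seedlings 3 months old, raised at 25 °C with 15 h of light and 9 h of dark and 60% humidity, whose soil was left to dry slowly and then watered again, so that the controls carry the acclimation too. A leaves were taken from these rehydrated plants as they stood. AD leaves were taken after such plants had been lifted from the soil and dried fast in air in Petri dishes. A replicate pools 45 leaves of at least 15 plants, so the p-values given here measure the spread between 3 pools a group and not between single plants. The other groups used are FD (rapidly dried plants that were never acclimated) with F (their fresh controls), A4D with A4 (the same rapid drying and its control 4 weeks after acclimation), and SD with F (the first, slow drying in soil). None of these shares a library with AD/A.

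Resurrection plants live through the loss of nearly all water from their leaves. In vegetative desiccation tolerance, as in maturing seeds, abscisic acid (ABA) acts through receptors of the PYL family that hold back protein phosphatases 2C and so release SnRK2 kinases, which switch on AREB transcription factors and their targets. Those targets include late embryogenesis abundant (LEA) proteins, which protect membranes and proteins as water leaves, and enzymes of protective sugars, while early light-induced proteins (ELIPs) bind free chlorophyll and photosynthesis is shut down.

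The deposited unit is FPKM, fragments per length of transcript and per depth of library. Between libraries it is a relative value, which depends on the other RNAs of the library. A gene counts as up- or down-regulated when its mean changed at least 1 unit on the log2 scale, either way, and its limma p, adjusted over the 18736 genes tested of 26693 in the table, was at most 0.05. Standard errors (SE) are on the log2 scale. All fold changes are of FPKM + 1 on the log2 scale, which understates the change of genes near 0. A difference between 2 responses is an interaction in the same fit, in log2 units, with its own adjusted p. FPKM of each of the 6 libraries summed to 911720 to 982816. The AD libraries had 14319 to 14438 genes at 1 FPKM or more and the A libraries 15142 to 15546. An AD library correlated with the other AD libraries at 0.961 to 0.966 on average, and an A library with the other A libraries at 0.925 to 0.927. The tables used here give no read counts, but steps among the lowest FPKM put the depth of AD replicates 2 and 3 at 0.8 and 0.87 and that of A replicates 1 to 3 at 1.06, 0.97 and 0.96 of that of AD replicate 1. Because an FPKM value is a share of the RNA in a pooled leaf sample, fewer cells of a type and less of an RNA per cell cannot be told apart in any result below. The label of leaf was checked against markers: all 13 mesophyll markers passed the filter, with a summed level of 94624 to 176989 FPKM in A. The 16 root markers, 13 of them tested, summed to 130 to 231 FPKM in A.

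Drying called 2447 genes up-regulated (13.1% of those tested) and 4913 down-regulated (26.2%), and 1203 and 2070 of them changed by at least 2 on the log2 scale. The median log2 fold change of all genes was −0.33. After the libraries were scaled to a common median ratio the median was −0.07 and the calls were 3289 up and 3794 down, so that the up-regulated share of all calls moved from 33.2 to 46.4%. The 3 AD libraries all lay above the 3 A libraries for 3727 genes (19.9%) and all below for 6757 (36.1%). The 2 groups of fresh plants were close to each other before drying, since A/F gave 11 genes up-regulated and 11 down-regulated (0.0587% each). Genes were sorted into 61 lists by the wording of their annotation, and 54 of the 61 held members called in both directions. The counts called in any list below are to be read beside the 13.1% and 26.2% of all genes.

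**Figure D1:**
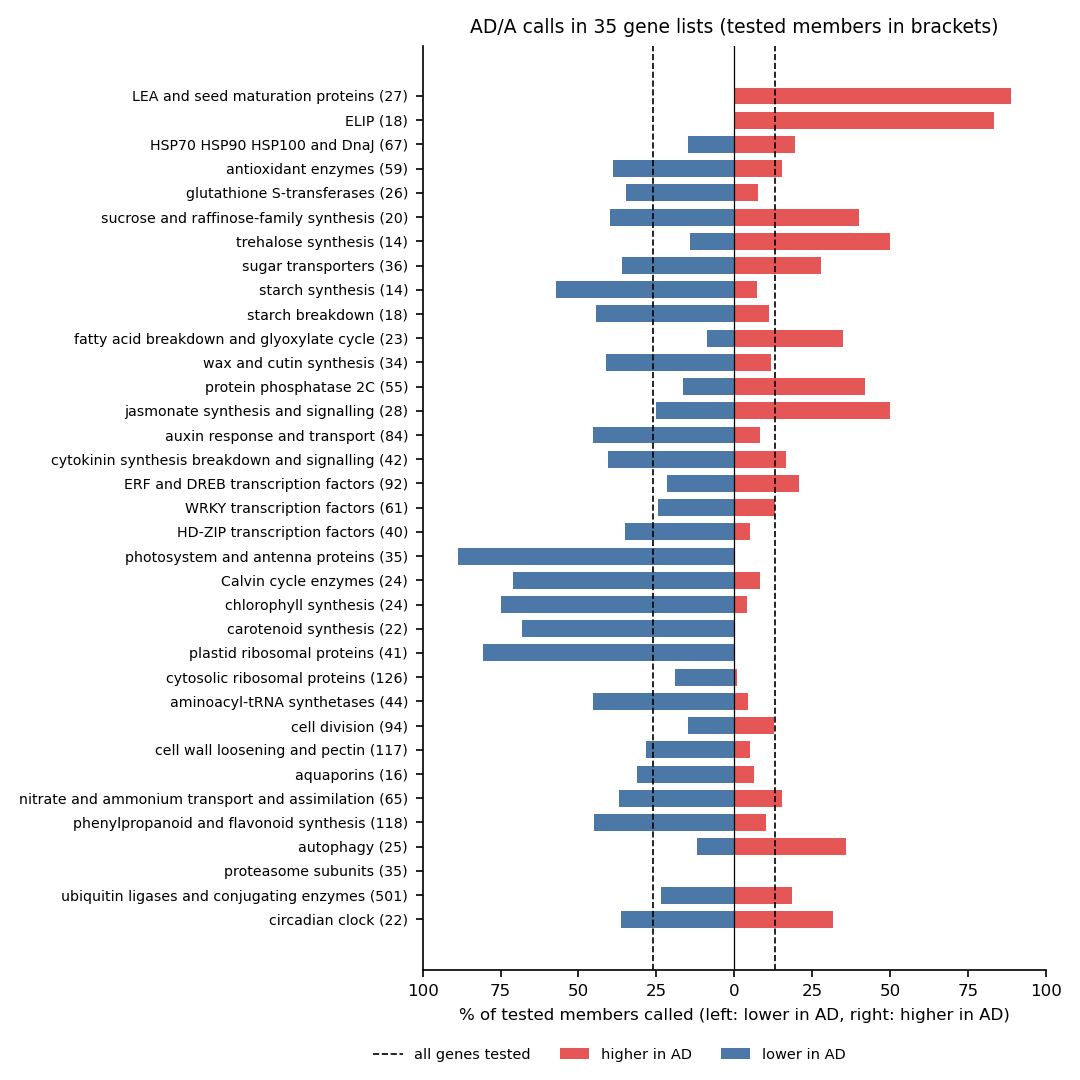
Calls of AD/A in 35 of the gene lists. Bars give the percentage of a list's tested members (their number in brackets) that were down-regulated (left, blue) or up-regulated (right, red), and the dashed lines mark the 26.2% and 13.1% of all genes tested. The LEA and ELIP bars reach 24 of 27 and 15 of 18 members to the right and none to the left, and the photosystem bar reaches 31 of 35 to the left.

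LEA and seed maturation proteins were the most abundant transcripts of the dried leaf. Of 27 list members tested 24 were up-regulated and 0 down-regulated (median log2 fold change 4.13, all genes −0.33), and also 0 were lower at an unadjusted limma p of at most 0.05. Their share of the FPKM sum was 15.9, 18.6 and 18.9% in the AD libraries and 2.27, 3.10 and 2.03% in the A libraries. Of the 20 most abundant genes of AD 11 belonged to this list and 18 were up-regulated. The top gene, KZV56069 (LEA76-like), was already high before drying, at 24792, 30209 and 28812 FPKM in AD and 7218, 6439.7 and 7056 FPKM in A (log2 fold change 2.01, SE 0.47, adjusted p = 0.00066). KZV36405, a maturation polypeptide that the list does not hold, came second at 20622, 26432 and 23941 FPKM in AD and 161, 612 and 354 FPKM in A (6.16, SE 0.53, adjusted p = 1.1e-10). For the dehydrin Xero 1-like gene KZV33446, of the LEA family that binds water and membranes through lysine-rich stretches, the values were 13454, 16855 and 17237 FPKM in AD and 1133, 1987 and 1534 FPKM in A (3.38, SE 0.50, adjusted p = 1.9e-06). All 3 genes were separated without overlap between groups, and their relative spread was smaller in AD than in A for KZV36405, where A replicate 2 was the highest control.

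The steepest rises of the list started from low levels. Of 27 tested markers of seed stores, which include some of the same names, 17 were up-regulated and 0 down-regulated. All 34 such markers summed to 1583 to 1981 FPKM in AD and 825 to 1090 FPKM in A, and their part in the LEA result was not tested. The seed maturation protein KZV31716 stood at 6351, 6285 and 6618 FPKM in AD and 13.2, 55.5 and 42.2 FPKM in A (log2 fold change 7.62, SE 0.59, adjusted p = 1.8e-11). Lea14, a desiccation protectant (KZV14089), stood at 568, 935 and 967 FPKM in AD and 3.16, 7.51 and 8.77 FPKM in A (6.84, SE 0.61, adjusted p = 2.1e-10). KZV56073 (LEA protein 1-like) stood at 4088, 5835 and 7595 FPKM in AD and 20.6, 178 and 28.9 FPKM in A (6.86, SE 0.92, adjusted p = 3e-07), and its A replicate 2 was several times above the other controls. KZV56073 belongs to 7 list members that lie on 1 scaffold of the assembly (KZV56066, KZV56068, KZV56069, KZV56071, KZV56072, KZV56073 and KZV56074), all 7 of them up-regulated. Where such neighbouring copies are alike, how fragments were split among them is uncertain. AD/A exceeded the slow drying SD/F for KZV56073 by 6.42, adjusted p = 0.00081 (interaction), as it did for 6 members of the list (7.09% of all genes), while 2 members were lower than in SD/F (11.2%).

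Genes of membrane proteins known from cold and water stress were also among the most abundant in AD. KZV20706, an AWPM-19-like membrane protein, stood at 6548, 8241 and 8566 FPKM in AD and 129, 256 and 189 FPKM in A (log2 fold change 5.38, SE 0.50, adjusted p = 4.5e-10). The cold-regulated plasma membrane protein COR413 (KZV52648) stood at 8682, 9309 and 9115 FPKM in AD and 1839, 1376 and 1892 FPKM in A (2.42, SE 0.40, adjusted p = 1.1e-05). Both genes were separated without overlap. The rise of KZV20706 was larger than in FD/F by 2.76, adjusted p = 0.012, and that of KZV52648 larger than in SD/F by 1.89, adjusted p = 0.019. Genes of other kinds rose more steeply, but to lower levels. KZV29520, an NDR1-like protein, rose from 12.98, 20.6 and 27.3 to 2832, 2838 and 2419 FPKM (log2 fold change 7.04, SE 0.44, adjusted p = 3.4e-13). The lipid-transfer protein KZV14189 rose from 11.1, 15.99 and 18.5 to 2706, 2401 and 1372 FPKM (7.03, SE 1.07, adjusted p = 2.4e-06). In both genes the lowest dried library was far above the highest control.

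ELIPs rose as a family. Of 18 tested members 15 were up-regulated and 0 down-regulated, with 0 lower at an unadjusted limma p of at most 0.05, and the list's median log2 fold change was 4.50. Together they took 1.04, 0.649 and 1.39% of the FPKM sum in AD and 0.0315, 0.0245 and 0.0642% in A. KZV28384 stood at 1202, 638 and 1075 FPKM in AD and 2.74, 8.32 and 13.8 FPKM in A (log2 fold change 6.87, SE 1.13, adjusted p = 8.3e-06), so that the lowest AD library lay far above the highest A library. KZV50303 stood at 1386, 768 and 1497 FPKM in AD and 29.4, 15.6 and 33.04 FPKM in A (5.50, SE 0.69, adjusted p = 9.7e-08). In both genes AD replicate 2 was the lowest of the dried libraries. In plants that were never acclimated KZV28384 changed by 0.11, and the difference of the 2 responses was 6.77, adjusted p = 0.0059. For 7 of the 18 members AD/A was higher than FD/F (4.4% of all genes) and for 0 lower, and for 4 members it was lower than SD/F (11.2%) and for 0 higher. The ELIP counts ran from 13 to 15 when any 1 library of AD or A was left out.

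**Figure D2:**
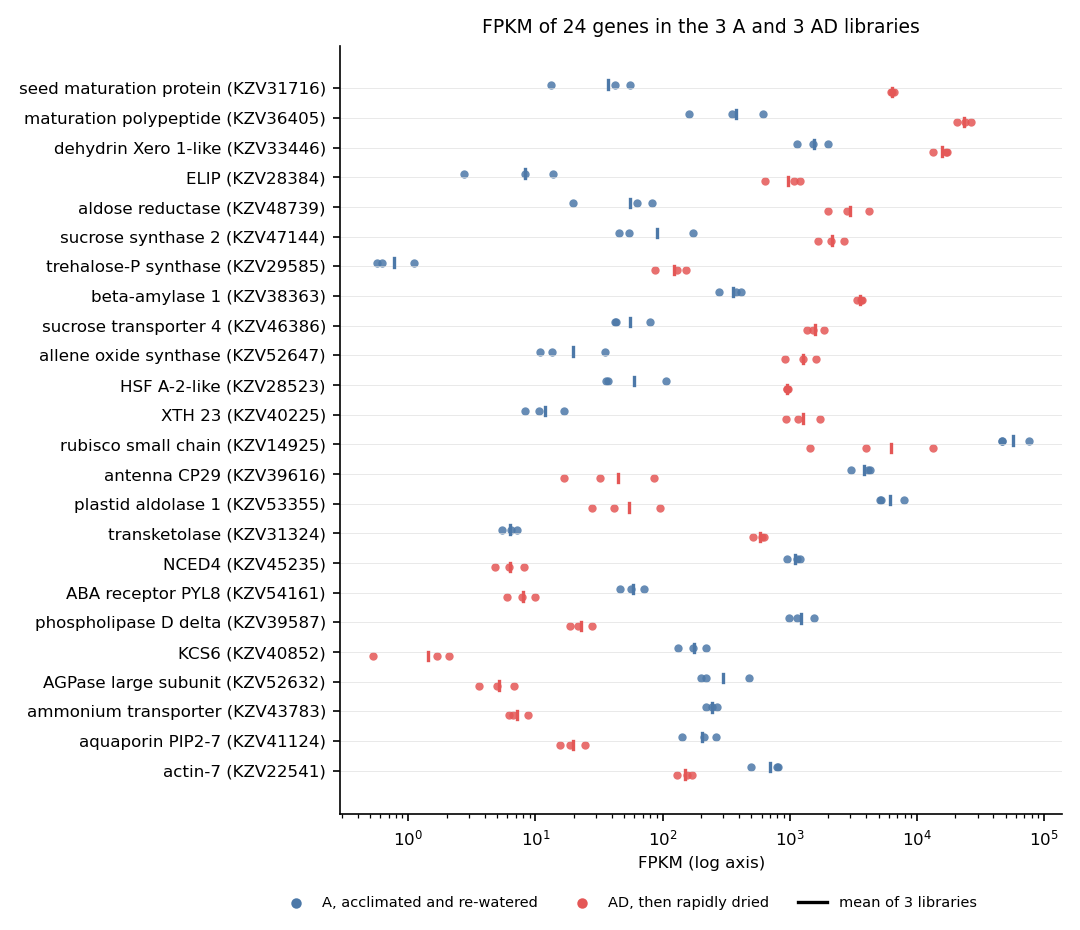
FPKM (log axis) of 24 genes in the single A (blue) and AD (red) libraries, with a tick at each group mean. In none of the 24 genes do the 2 groups overlap. The rubisco small chain KZV14925 shows the widest spread among AD libraries of the genes plotted, from 1442 to 13415 FPKM.

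Chaperones of the HSP70, HSP90, HSP100 and DnaJ families held 13 members up-regulated and 10 down-regulated of 67 (20 and 4 after scaling), yet their summed share of FPKM was 0.904, 0.890 and 0.876% in AD and 0.418, 0.488 and 0.422% in A. These proteins fold or refold other proteins. Heat shock cognate KZV14699 stood at 1798, 1683 and 1835 FPKM in AD and 204, 433 and 119.6 FPKM in A (log2 fold change 3.01, SE 0.47, adjusted p = 3.4e-06). KZV35043, another HSP70, was at 2762, 2229 and 2194 FPKM in AD and 520.2, 599.8 and 214 FPKM in A (2.55, SE 0.31, adjusted p = 7.5e-08). A replicate 3 was the lowest control in both, and the groups did not overlap. Small heat shock proteins, which keep unfolding proteins soluble, held 3 of 14 up-regulated and 1 down-regulated (6 and 1 after scaling), and only 1 up-regulated without AD replicate 2. The class I gene KZV34973 stood at 34.2, 33.6 and 36.95 FPKM in AD and 5.14, 4.06 and 9.52 FPKM in A (2.38, SE 0.70, adjusted p = 0.0058). The chloroplast gene KZV39965 instead fell to 1.19, 0.37 and 2.04 FPKM from 203, 147 and 79.8 FPKM (−6.01, SE 0.80, adjusted p = 3e-07).

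Enzymes against reactive oxygen split. Of 59 antioxidant genes 9 were up-regulated (5 without A replicate 1 or without AD replicate 2) and 23 down-regulated, and the few that rose were abundant, so that the list took 1.02, 1.16 and 1.30% of FPKM in AD and 0.854, 0.998 and 1.17% in A, with overlap. Aldose reductase KZV48739, which detoxifies aldehydes, stood at 1994, 2799 and 4178 FPKM in AD and 19.9, 82.6 and 63.1 FPKM in A (log2 fold change 5.89, SE 0.76, adjusted p = 1.6e-07). Glutathione peroxidase KZV31547, which reduces lipid hydroperoxides, stood at 1334, 1747 and 2177 FPKM in AD and 107, 196 and 136 FPKM in A (3.59, SE 0.36, adjusted p = 1.5e-09). Monodehydroascorbate reductase KZV27938, which recycles ascorbate, was at 1429, 1538 and 1599 FPKM in AD and 256, 309.5 and 251 FPKM in A (2.48, SE 0.29, adjusted p = 2.3e-08). The AD libraries were above all A libraries in each of these. The 1-Cys peroxiredoxin KZV57762, a type known from seeds, was nearly absent before drying, at 37.2, 116 and 132 FPKM in AD and 0.51, 0.28 and 0 FPKM in A (6.07, SE 0.91, adjusted p = 2e-06), and its response exceeded that in FD/F by 4.61, adjusted p = 0.021. Chloroplast peroxiredoxin Q KZV18261 fell to 138, 80.7 and 40.9 FPKM from 362, 358 and 463 FPKM (−2.33, SE 0.39, adjusted p = 9.9e-06), which was a larger fall than in FD/F (−1.82, adjusted p = 0.033).

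Glutathione S-transferases, which attach glutathione to toxic compounds, were lower in AD/A than in FD/F for 7 of 26 tested members (4.41% of all genes) and higher for 0. In AD/A itself 2 were up-regulated and 9 down-regulated. The GST gene KZV18547 stood at 18.3, 15.6 and 11.4 FPKM in AD and 55.96, 40 and 132 FPKM in A (log2 fold change −2.10, SE 0.60, adjusted p = 0.0044), and its log2 fold change in FD/F was 2.16, a difference of −4.26, adjusted p = 0.001. GST gene G001363 fell to 28.4, 35.8 and 32.6 FPKM from 222, 354 and 279 FPKM (−3.08, SE 0.62, adjusted p = 0.00014; interaction −2.85, adjusted p = 0.037). The dried libraries were tight and low in both genes, while A replicate 3 was the highest control in KZV18547 and A replicate 2 in G001363.

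Sugar metabolism changed by isoform. In the list for sucrose and the raffinose family 8 members were up-regulated and 8 down-regulated of 20, and its median of −0.08 became 0.30 after scaling. The list's share of FPKM was 1.46, 1.32 and 1.21% in AD and 1.14, 1.26 and 1.64% in A, with overlap. Galactinol synthase KZV14491, of rank 5 among the genes of A, fell to 6128, 3630 and 2365 FPKM from 9157, 8961 and 13320 FPKM (log2 fold change −1.46, SE 0.44, adjusted p = 0.0073). Sucrose synthase 2 KZV47144, which cleaves or makes sucrose with UDP-glucose, stood at 1666, 2119.8 and 2674 FPKM in AD and 54.3, 173 and 45.8 FPKM in A (log2 fold change 4.79, SE 0.52, adjusted p = 8.4e-09). A second gene of the same name, KZV18264, stood at 43.4, 12.5 and 12.6 FPKM in AD and 81.8, 188 and 117 FPKM in A (−2.61, SE 0.59, adjusted p = 0.00053), with AD replicate 1 the nearest to the controls. Of the sucrose-phosphate synthases, which make the precursor of sucrose, KZV30085 stood at 93.95, 96.5 and 113 FPKM in AD and 14.8, 34.4 and 19.2 FPKM in A (2.18, SE 0.37, adjusted p = 1.2e-05). KZV27438, annotated as the same enzyme, moved the other way, to 5.47, 4.45 and 3.48 FPKM from 25.9, 32.6 and 20.5 FPKM (−2.31, SE 0.29, adjusted p = 9.8e-08). The response of 7 of these 20 members was higher than in SD/F (7.09% of all genes) and of 0 lower.

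Trehalose-phosphate synthase and phosphatase, enzymes of a sugar signal, held 7 members up-regulated and 2 down-regulated of 14 (median 0.94). The synthase KZV29585 was below 2 FPKM in every A library, at 131, 152 and 87 FPKM in AD and 0.57, 0.62 and 1.11 FPKM in A (log2 fold change 6.11, SE 0.54, adjusted p = 1.9e-10), and exceeded its change in SD/F by 4.24, adjusted p = 0.00029. KZV37279, another synthase, fell to 6.67, 4.26 and 3.69 FPKM from 61.4, 72.6 and 73.5 FPKM (−3.61, SE 0.32, adjusted p = 2.3e-10). Cell-wall invertase KZV21430, which splits sucrose outside the cell, rose to 170.2, 163 and 122 FPKM from 3.71, 5.06 and 4.48 FPKM (4.81, SE 0.51, adjusted p = 5.8e-09). This rise was smaller than in FD/F (−2.92, adjusted p = 0.009) and larger than in SD/F (2.90, adjusted p = 0.0053).

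Sugar transporters took 0.395, 0.397 and 0.426% of FPKM in AD and 0.0794, 0.105 and 0.112% in A, although 13 of the 36 tested were down-regulated and 10 up-regulated (11 and 13 after scaling, which turns the direction). Sucrose transporter 4 KZV46386, a vacuolar exporter in other plants, stood at 1375, 1517 and 1848 FPKM in AD and 42.1, 79.5 and 43.2 FPKM in A (log2 fold change 4.87, SE 0.43, adjusted p = 1.5e-10). The vacuolar monosaccharide transporter KZV41752 stood at 1189, 1006 and 1141 FPKM in AD and 68.8, 80.8 and 99.96 FPKM in A (3.74, SE 0.42, adjusted p = 1.7e-08). The plasma membrane hexose carrier KZV14572 (sugar transport protein 13-like) was at 349, 386 and 242 FPKM in AD and 2.46, 1.64 and 3.84 FPKM in A (6.50, SE 0.56, adjusted p = 9.4e-11). The lowest AD value was far above the highest A value in each of these genes. SWEET16-like KZV33833, a facilitator of the vacuole membrane, stood at 77.4, 93.2 and 90.3 FPKM in AD and 0, 1.20 and 2.12 FPKM in A (5.53, SE 0.62, adjusted p = 1.3e-08). The hexose carrier HEX6-like KZV25201 fell to 7.40, 4.97 and 5.87 FPKM from 81.2, 58.7 and 127 FPKM (−3.61, SE 0.37, adjusted p = 2.7e-09).

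In the list of starch breakdown 2 of 18 members were up-regulated and 8 down-regulated (3 and 5 after scaling), but the share of FPKM was 0.417, 0.417 and 0.386% in AD and 0.0854, 0.106 and 0.0852% in A. That share rested on beta-amylase KZV38363, which releases maltose from starch in the chloroplast and stood at 3694, 3609 and 3368 FPKM in AD and 411, 379.8 and 279.9 FPKM in A (log2 fold change 3.33, SE 0.30, adjusted p = 2.7e-10). Its namesake KZV45950 stood at 12.5, 14.8 and 16.6 FPKM in AD and 45.1, 44.4 and 26.5 FPKM in A (−1.32, SE 0.33, adjusted p = 0.0012), a call that was lost after scaling. In starch synthesis 1 of 14 was up-regulated and 8 down-regulated (2 and 5 after scaling), and 0 were up-regulated without A replicate 1 or without AD replicate 3. The large subunit of ADP-glucose pyrophosphorylase KZV52632, the enzyme that commits glucose to starch, fell to 6.84, 3.62 and 5.02 FPKM from 200.4, 477.5 and 221 FPKM (−5.53, SE 0.56, adjusted p = 2.4e-09).

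Lipid genes split between store and surface. Oil body proteins, which coat lipid droplets, held 5 of 13 members up-regulated and 1 down-regulated, and fatty acid breakdown and the glyoxylate cycle, which turn stored fat into carbon for sugars, held 8 of 23 up-regulated and 2 down-regulated. Peroxygenase-like KZV34017, of the caleosin kind found on oil bodies, stood at 1518, 1334 and 1485 FPKM in AD and 31.3, 37.5 and 58.6 FPKM in A (log2 fold change 5.10, SE 0.48, adjusted p = 5.8e-10). Monoglyceride lipase KZV57908 stood at 698, 829 and 733 FPKM in AD and 22.9, 40.3 and 18.1 FPKM in A (4.82, SE 0.47, adjusted p = 9.7e-10). The peroxisomal acyl-CoA oxidase KZV30798, the first step of beta-oxidation, was at 327, 355 and 379 FPKM in AD and 31.4, 46.05 and 29.04 FPKM in A (3.31, SE 0.23, adjusted p = 2.1e-12). Their AD values were tight and lay above every A value. Phospholipase D delta KZV39587, which releases phosphatidic acid from membrane lipids, fell to 28.1, 18.6 and 21.6 FPKM from 1558, 979 and 1131 FPKM (−5.68, SE 0.35, adjusted p = 3.4e-13). Of 34 wax and cutin genes 4 were up-regulated and 14 down-regulated. KZV40852, the 3-ketoacyl-CoA synthase 6 that lengthens wax precursors in the epidermis, fell to 0.53, 2.10 and 1.68 FPKM from 174, 131 and 221 FPKM (−6.21, SE 0.66, adjusted p = 5.4e-09). The 55 markers of epidermis and guard cells summed to 260 to 279 FPKM in AD and 523 to 824 FPKM in A, with KZV40852 the highest among them. Of the 50 tested 5 were up-regulated and 15 down-regulated, and the part of these markers in this result was not tested.

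Abscisic acid came next. The list for synthesis and breakdown of the hormone, gathered by annotation wording, held 5 members up-regulated and 6 down-regulated of 14. Nine-cis-epoxycarotenoid dioxygenase 4 KZV45235, of the family that cleaves carotenoids, fell the most in this list: 8.14, 6.16 and 4.78 FPKM in AD and 945, 1148 and 1204 FPKM in A (log2 fold change −7.24, SE 0.54, adjusted p = 8.2e-12). Whether KZV45235 takes part in ABA synthesis was not tested, so its fall is not read as a fall of that synthesis. KZV45228, another dioxygenase of that family, stood at 2.41, 1.38 and 2.11 FPKM in AD and 16.7, 51.5 and 14.8 FPKM in A (−3.06, SE 0.81, adjusted p = 0.0025). KZV58267, annotated as NCED5, moved up from almost nothing, at 5.27, 3.07 and 4.93 FPKM in AD and 0.32, 0 and 0 FPKM in A (2.28, SE 0.43, adjusted p = 5e-05). Both ABA 8′-hydroxylases named here, which inactivate the hormone, were up-regulated. KZV31731 stood at 111, 86.3 and 121 FPKM in AD and 4.61, 1.71 and 1.28 FPKM in A (5.02, SE 1.08, adjusted p = 0.00028). KZV37666 was at 16.8, 9.02 and 17.1 FPKM in AD and 0.21, 0.11 and 0.19 FPKM in A (3.66, SE 0.51, adjusted p = 6.8e-07), with a larger rise than in FD/F (3.24, adjusted p = 0.0037) and a smaller one than in SD/F (−2.30, adjusted p = 0.024).

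Of 16 ABA receptors, SnRK2 kinases and AREB factors 4 were up-regulated and 2 down-regulated (7 and 2 after scaling), against 13.1% and 26.2% of all genes. The list's median log2 fold change was 0.56 (all genes −0.33). The receptor PYL8 (KZV54161) fell to 5.92, 7.87 and 9.97 FPKM from 46.5, 56.9 and 70.9 FPKM (log2 fold change −2.73, SE 0.33, adjusted p = 5.3e-08). AREB-like KZV45169 rose to 164, 168 and 195 FPKM from 6.65, 8.99 and 16.1 FPKM (4.01, SE 0.47, adjusted p = 2.8e-08). The kinase SAPK2 (G000246) rose to 242, 179 and 183 FPKM from 37.2, 54.5 and 24.5 FPKM (2.40, SE 0.45, adjusted p = 4.9e-05). The groups were apart in all 3. Protein phosphatases 2C, the negative arm of the pathway, held 23 of 55 members up-regulated and 9 down-regulated, and took 0.515, 0.504 and 0.498% of FPKM in AD against 0.107, 0.154 and 0.164% in A. KZV36442 stood at 758, 714 and 689 FPKM in AD and 4.51, 6.95 and 24.9 FPKM in A (6.11, SE 0.60, adjusted p = 1.4e-09), with A replicate 3 the highest control.

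More jasmonate genes rose than fell, the reverse of the slow drying, but fewer rose than in rapid drying without acclimation. The list held 14 members up-regulated and 7 down-regulated of 28 in AD/A, and 1 up-regulated and 14 down-regulated in SD/F, and for 13 members the response was higher than in SD/F (7.09% of all genes) and for 2 lower. In FD/F 17 were up-regulated and 4 down-regulated, with a median log2 fold change of 2.41 against 0.92 in AD/A. For 0 members AD/A was higher than FD/F (4.4% of all genes) and for 4 lower (4.41%). In A4D/A4 the list held 6 up-regulated and 6 down-regulated. Its share of FPKM was 1.05, 0.920 and 0.546% in AD and 0.172, 0.173 and 0.203% in A. Allene oxide cyclase KZV19494, which closes the ring of the jasmonate precursor, stood at 2377, 2714 and 1208 FPKM in AD and 213, 154 and 116 FPKM in A (log2 fold change 3.66, SE 0.90, adjusted p = 0.0012), with an SD/F change of −6.28 and a difference of 9.94, adjusted p = 5.6e-06. A second cyclase, KZV19006, stood at 2838, 2649 and 1317 FPKM in AD and 242, 159 and 89.4 FPKM in A (3.82, SE 0.70, adjusted p = 4e-05). Allene oxide synthase KZV52647, the step before, was at 1618, 1272 and 912 FPKM in AD and 13.6, 10.9 and 35.2 FPKM in A (6.06, SE 0.73, adjusted p = 5.4e-08), where the rise was smaller than in FD/F (−3.95, adjusted p = 0.014). AD replicate 3 was the lowest dried library in all 3 genes. TIFY 9 (KZV57509), of the family of jasmonate repressors, rose to 53.6, 32.3 and 32.4 FPKM from 3.08, 0.73 and 1.04 FPKM (4.01, SE 0.65, adjusted p = 6.9e-06; difference from SD/F 4.61, adjusted p = 0.00074).

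Most called genes of auxin and cytokinin fell, as did most of all called genes, of which 33.2% were up-regulated. Auxin genes held 7 of 84 members up-regulated and 38 down-regulated (median −1.04), and cytokinin genes 7 and 17 of 42, against 13.1% and 26.2% of all genes. The auxin efflux carrier KZV29439 stood at 2.14, 1.27 and 1.30 FPKM in AD and 81.95, 55.99 and 59.2 FPKM in A (log2 fold change −4.69, SE 0.45, adjusted p = 6.9e-10). Zeatin O-glucosyltransferase KZV36348, which stores cytokinin as a sugar conjugate, stood at 1, 1.26 and 1.40 FPKM in AD and 85.3, 39.96 and 60.98 FPKM in A (−4.77, SE 0.30, adjusted p = 3.4e-13). ARR5-like KZV36078, a response regulator induced by cytokinin in Arabidopsis, was at 4.11, 2.87 and 3.39 FPKM in AD and 70.9, 68.3 and 82.1 FPKM in A (−4.07, SE 0.49, adjusted p = 5e-08). Every AD library was below every A library in these genes. AUXIN RESPONSE 4 (KZV15762), which helps place an auxin carrier in the membrane in Arabidopsis, was an exception, at 866, 955 and 1167 FPKM in AD and 41.8, 32.4 and 37.8 FPKM in A (4.70, SE 0.30, adjusted p = 3.9e-13). The gibberellin receptor GID1B-like KZV45588 rose to 195, 150.1 and 99.8 FPKM from 2.73, 2.30 and 8.61 FPKM (4.88, SE 0.51, adjusted p = 3.7e-09), within a list of 5 up-regulated and 6 down-regulated of 25. For ethylene, 4 of 29 were up-regulated and 9 down-regulated (5 each after scaling), near the shares of all genes before scaling. ACC oxidase KZV16132, which makes the gas, rose to 2729, 2999 and 1583 FPKM from 114, 371 and 859.9 FPKM (2.82, SE 0.73, adjusted p = 0.0019).

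Transcription factors were called in both directions, to be read beside the 13.1% of all genes up-regulated and 26.2% down-regulated. The WRKY counts were near these shares before scaling. Heat stress factors had 6 of 23 up-regulated and 1 down-regulated (7 and 0 after scaling, 3 and 2 without A replicate 2, and 0 down-regulated without A replicate 3 or AD replicate 2), NAC factors 13 and 9 of 47, MYB factors 10 and 27 of 81 and HD-ZIP factors 2 and 14 of 40. ERF and DREB factors had 19 up-regulated and 20 down-regulated of 92 (21 and 17 after scaling), and WRKY factors 8 and 15 of 61 (12 and 11 after scaling), so that the larger direction of both turned with the scaling. Without A replicate 3 the WRKY factors had 8 down-regulated. HSF A-2-like KZV28523, an activator of chaperone genes, stood at 967, 951 and 953 FPKM in AD and 36.96, 35.7 and 106 FPKM in A (log2 fold change 4.18, SE 0.55, adjusted p = 2.2e-07). NAC gene KZV53859 was at 222, 243 and 187 FPKM in AD and 2.48, 2.27 and 8.76 FPKM in A (5.50, SE 0.82, adjusted p = 1.8e-06). DREB gene KZV55835, of the kind that binds the dehydration-responsive element, stood at 435, 397 and 494 FPKM in AD and 22.1, 15.1 and 30.5 FPKM in A (4.28, SE 0.38, adjusted p = 2.1e-10). A replicate 3 was the highest control in each of these. The ABR1-like ERF KZV58728, a repressor of ABA responses in Arabidopsis, was below 1 FPKM before drying, at 109, 100.02 and 87.5 FPKM in AD and 0.26, 0.47 and 0.50 FPKM in A (6.15, SE 0.47, adjusted p = 1.6e-11).

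Named genes of the HD-ZIP and WRKY lists moved in both directions, while the TGA genes of the bZIP list rose together. Among HD-ZIP genes ATHB-12 (KZV50878), which is induced by ABA in Arabidopsis, rose to 139.96, 93.95 and 125 FPKM from 2.24, 3.67 and 2.16 FPKM (log2 fold change 5.03, SE 0.65, adjusted p = 1.9e-07). ATHB-6-like KZV30100 fell to 1.80, 1.53 and 2.82 FPKM from 100.2, 138 and 160.2 FPKM (−5.45, SE 0.36, adjusted p = 1.1e-12). Among WRKY genes KZV56028 (WRKY71) stood at 54.9, 38.4 and 26.5 FPKM in AD and 1.58, 0.72 and 0.73 FPKM in A (4.31, SE 0.45, adjusted p = 3.9e-09). KZV57673 (WRKY46) was at 4.35, 1.21 and 2.76 FPKM in AD and 27.96, 73.3 and 169.5 FPKM in A (−4.34, SE 0.74, adjusted p = 1.6e-05). Control levels of WRKY46 spread widely, with A replicate 3 the highest, as they did for the ERF gene KZV24229 (7.39, 2.10 and 3.55 FPKM in AD and 34.6, 53.7 and 168 FPKM in A; −3.81, SE 0.94, adjusted p = 0.0012). The bZIP gene TGA1 (KZV30866), of a family tied to salicylic acid and redox signals, rose to 104, 131 and 128 FPKM from 0.26, 0.28 and 0.28 FPKM (6.57, SE 0.60, adjusted p = 2.8e-10). TGA5-like KZV40032 rose to 72.7, 94.2 and 111 FPKM from 0, 0.87 and 0.54 FPKM (6.02, SE 0.57, adjusted p = 5.2e-10). The bZIP list as a whole held 3 up-regulated and 4 down-regulated of 17. The MYB gene KZV39333 was nearly gone after drying, at 0, 0.31 and 0 FPKM in AD and 18.3, 29.5 and 40.5 FPKM in A (−4.73, SE 0.32, adjusted p = 1.2e-12).

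Photosynthesis genes lost most of their share of the RNA. Of 35 photosystem and antenna genes 31 were down-regulated and 0 up-regulated (0 also at an unadjusted limma p of at most 0.05), with a median log2 fold change of −3.92, and their share of FPKM was 1.41, 0.753 and 0.378% in AD and 16.9, 11.4 and 10.7% in A. The antenna protein CP29.1 (KZV39616) stood at 85.7, 32.1 and 16.7 FPKM in AD and 4256, 3047 and 4148 FPKM in A (log2 fold change −6.67, SE 0.56, adjusted p = 6.6e-11). Plastocyanin G000880, the electron carrier between the 2 photosystem complexes, stood at 129, 47.3 and 58.1 FPKM in AD and 9113, 5762 and 6715 FPKM in A (−6.62, SE 0.45, adjusted p = 1.2e-12). The dried values were a small part of any control value in both genes, and AD replicate 1 was the highest of the dried libraries. Calvin cycle enzymes held 17 of 24 members down-regulated and 2 up-regulated. Rubisco small chain KZV14925, the most abundant control transcript of this list, stood at 13415, 3963 and 1442 FPKM in AD and 76504, 46844 and 46579.7 FPKM in A (−3.70, SE 0.54, adjusted p = 1.4e-06). Rubisco activase KZV54856, which frees the enzyme's active sites, was at 777, 208 and 136 FPKM in AD and 20862, 15335 and 12265 FPKM in A (−5.81, SE 0.57, adjusted p = 1.1e-09). The plastid enzyme aldolase 1 (KZV53355) fell further in AD/A than in FD/F (−3.14, adjusted p = 0.011), at 95.01, 41.6 and 27.7 FPKM in AD and 7944, 5092 and 5270.4 FPKM in A (−6.93, SE 0.56, adjusted p = 3.6e-11). Against these, transketolase KZV31324, which also serves the pentose phosphate route, rose to 509.6, 629.95 and 608 FPKM from 5.43, 7.15 and 6.45 FPKM (6.31, SE 0.52, adjusted p = 4.1e-11).

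Photorespiration held 0 up-regulated (1 at an unadjusted limma p of at most 0.05 and 1 called after scaling) and 7 down-regulated of 15. Glycerate dehydrogenase KZV39337, of the peroxisomal steps, fell to 23.8, 6.21 and 5.96 FPKM from 318, 449.6 and 301 FPKM (log2 fold change −5.03, SE 0.54, adjusted p = 5.7e-09). Carotenoid synthesis held 0 up-regulated (1 unadjusted and 2 called after scaling) and 15 down-regulated of 22. ChlH (KZV36355), the subunit of magnesium chelatase at the branch between haem and chlorophyll, stood at 54.2, 37.04 and 11.8 FPKM in AD and 748, 773 and 285 FPKM in A (−4.19, SE 0.56, adjusted p = 3e-07). Chlorophyll breakdown split, with 3 of 12 genes up-regulated and 6 down-regulated, and its share of FPKM was 0.241, 0.241 and 0.207% in AD and 0.0841, 0.108 and 0.106% in A. The 3 that rose were STAY-GREEN (KZV42127), a pheophytinase (KZV31980) and pheophorbide a oxygenase (KZV39323), which opens the chlorophyll ring and stood at 545, 505 and 451 FPKM in AD and 194, 264 and 249 FPKM in A (1.09, SE 0.30, adjusted p = 0.0034). A STAY-GREEN LIKE gene (KZV17359) was nearly gone, at 0.24, 0.60 and 0.27 FPKM in AD and 56.3, 64.8 and 31.8 FPKM in A (−5.19, SE 0.53, adjusted p = 2.4e-09). Chlorophyllase 2 (KZV25950), which cleaves the tail of chlorophyll, was at 2.58, 3.45 and 1.96 FPKM in AD and 30.04, 15.7 and 180.2 FPKM in A (−3.65, SE 0.58, adjusted p = 4.7e-06). Controls of chlorophyllase 2 spread from 15.7 to 180 FPKM, yet each exceeded the dried libraries. For 12 of 24 genes of chlorophyll synthesis the response was lower than in SD/F (11.2% of all genes) and for 0 higher.

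Genes of protein synthesis came next. Plastid ribosomal proteins held 33 of 41 members down-regulated and 0 up-regulated (1 at an unadjusted limma p of at most 0.05; 1 up-regulated after scaling), and for 13 of them the response was lower than in FD/F (4.41% of all genes) and for 18 lower than in SD/F (11.2%). The 50S protein L31 (KZV28860) stood at 25.3, 17.9 and 16.2 FPKM in AD and 497, 271 and 383 FPKM in A (log2 fold change −4.19, SE 0.34, adjusted p = 3.5e-11). Cytosolic ribosomal proteins held 24 of 126 down-regulated and 1 up-regulated (9 and 2 after scaling). Before scaling both counts were below the 26.2% and 13.1% of all genes. The list's median log2 fold change was −0.62 (all genes −0.33), and 77 of the 126 were lower in every AD library than in any A library (36.1% of all genes). Their share of FPKM was 0.925, 0.779 and 0.817% in AD and 1.34, 1.14 and 1.46% in A. For 29 of them the response was lower than in SD/F and for 0 higher. The 1 that rose was 60S protein L22-2-like KZV42028, to 93.01, 53.1 and 30.5 FPKM from 10.4, 7.09 and 7.26 FPKM (2.57, SE 0.51, adjusted p = 0.00012). Aminoacyl-tRNA synthetases, which load amino acids onto tRNA, held 20 of 44 down-regulated and 2 up-regulated, translation factors 14 and 6 of 77 (9 and 13 after scaling), and splicing factors 12 and 6 of 84 (6 and 13 after scaling), the last 2 lists turning direction with the scaling. Before scaling the counts of these last 2 lists were below the shares of all genes.

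**Figure D3:**
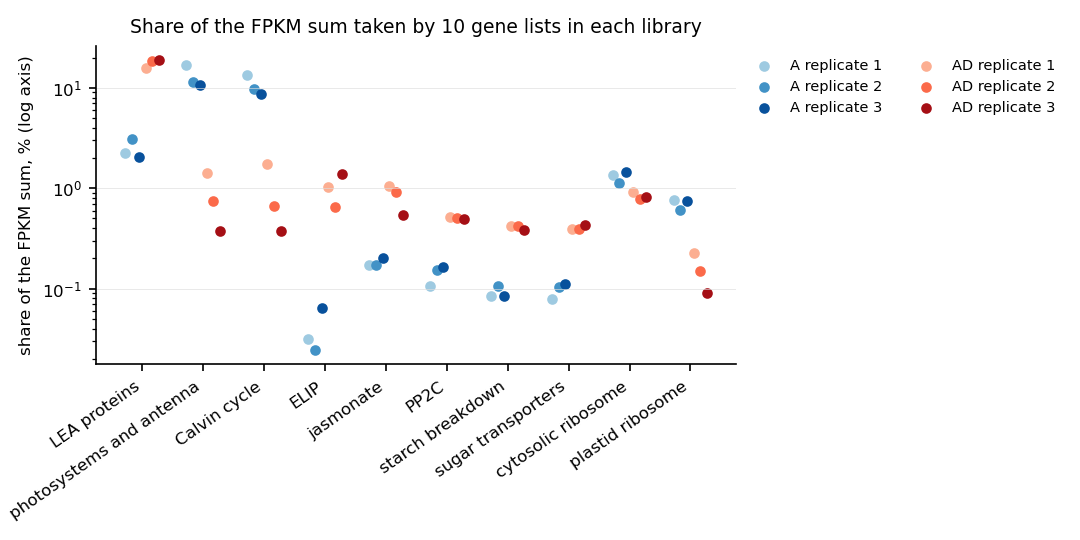
Share of the FPKM sum (%, log axis) taken by 10 gene lists in each of the 6 libraries, blue for A and red for AD, darker for higher replicate numbers. LEA proteins rise to 15.9 to 18.9% in AD, while photosystem genes drop to 0.378 to 1.41%, with AD replicate 1 the highest and AD replicate 3 the lowest of the dried libraries.

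The dried libraries differed among themselves in how much photosynthesis RNA they kept. AD replicate 1 was the highest AD library for 34 of 35 photosystem genes, 31 of 41 plastid ribosomal genes and 86 of 126 cytosolic ribosomal genes, against 34.8% of all genes. It was also the highest for 20 of 28 jasmonate, 26 of 40 respiratory chain and 37 of 65 nitrogen genes. The Calvin cycle took 1.76, 0.662 and 0.377% of FPKM in AD and 13.3, 9.67 and 8.59% in A. Mesophyll markers, which are themselves photosynthesis genes, summed to 3743 to 20120 FPKM in AD and 94624 to 176989 FPKM in A, 13 of 13 down-regulated, and their part in the photosynthesis results was not tested. With any 1 library of AD or A left out, 31 to 32 of the photosystem genes, 17 to 18 of the Calvin cycle genes and 31 to 33 of the plastid ribosomal genes were down-regulated. Cytosolic ribosomal genes were less settled, with 18 to 32 down-regulated.

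Genes of protein breakdown and recycling differed by list. Autophagy genes, which wrap cell contents for the vacuole, held 9 of 25 up-regulated and 3 down-regulated (12 and 1 after scaling). In FD/F 3 were up-regulated and 4 down-regulated. For 4 members the response was higher than in FD/F (4.4% of all genes) and for 0 lower. The list's share of FPKM did not rise, at 0.0666, 0.0783 and 0.0735% in AD and 0.06465, 0.0896 and 0.104% in A. ATG13 (KZV41075), of the complex that starts autophagy, stood at 12.9, 11.9 and 12.4 FPKM in AD and 3.32, 4.32 and 3.22 FPKM in A (log2 fold change 1.54, SE 0.33, adjusted p = 0.00031), an interaction with FD/F of 1.89, adjusted p = 0.0094. Ubiquitin ligases and conjugating enzymes, which tag proteins for breakdown, held 93 of 501 up-regulated and 118 down-regulated (121 and 90 after scaling, which turns the direction), at 1.69, 1.69 and 1.67% of FPKM in AD and 0.897, 0.935 and 1.25% in A. EID1-like F-box protein KZV32405 stood at 772, 665 and 639 FPKM in AD and 1.58, 3.85 and 9.50 FPKM in A (7.09, SE 0.69, adjusted p = 1.1e-09). RHA1B-like ligase KZV15359 was at 1.54, 0.49 and 1.33 FPKM in AD and 149.8, 121 and 142 FPKM in A (−6.06, SE 0.48, adjusted p = 2.3e-11). The rises and falls of these ligases left no overlap between groups. Of 35 proteasome subunits limma called 0 in either direction (7 higher and 1 lower at an unadjusted p of at most 0.05, and 4 up-regulated after scaling).

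Calcium genes were called in both directions, and most respiration genes were not called. Calcium sensors and kinases held 16 up-regulated and 18 down-regulated of 77 (20 and 14 after scaling, which turns the direction), and the calmodulin-like protein CML18 (KZV53889) stood at 2342, 2049.6 and 2017 FPKM in AD and 6.99, 15.9 and 33.9 FPKM in A (log2 fold change 6.99, SE 0.66, adjusted p = 5.5e-10), with no overlap and with A replicate 3 the highest control. In the mitochondrial respiratory chain 32 of 40 genes were not called. Of the 40, 4 were up-regulated and 4 down-regulated (6 and 2 after scaling, and 2 down-regulated without AD replicate 3), against 13.1% and 26.2% of all genes. The iron-sulphur subunit of succinate dehydrogenase KZV36702 stood at 149, 154 and 160.2 FPKM in AD and 13.04, 14.5 and 5.13 FPKM in A (3.82, SE 0.53, adjusted p = 6e-07). Alternative oxidase 1B (KZV31497), which bypasses proton pumping, was at 171, 73.3 and 107 FPKM in AD and 13.6, 32.2 and 29.1 FPKM in A (2.19, SE 0.59, adjusted p = 0.003). Glutamate dehydrogenase KZV42715, which releases ammonium from glutamate, rose to 94.7, 129.6 and 107 FPKM from 10.3, 11.1 and 9.23 FPKM (3.30, SE 0.43, adjusted p = 2.2e-07).

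Of 65 genes of nitrogen uptake and assimilation 10 were up-regulated and 24 down-regulated. An ammonium transporter (KZV43783) stood at 6.17, 6.68 and 8.75 FPKM in AD and 221, 245 and 267 FPKM in A (log2 fold change −4.91, SE 0.44, adjusted p = 2.7e-10), a larger fall than in FD/F (−1.99, adjusted p = 0.042) and than in SD/F (−3.50, adjusted p = 0.00027). Chloroplast glutamine synthetase KZV20761, which fixes ammonium, stood at 223, 104 and 37.98 FPKM in AD and 1348, 1556 and 1305 FPKM in A (−3.85, SE 0.53, adjusted p = 4.6e-07). By contrast asparagine synthetase KZV32197, which makes a nitrogen store, stood at 242, 749 and 413 FPKM in AD and 9.11, 35.5 and 8.86 FPKM in A (4.78, SE 0.82, adjusted p = 1.6e-05), with AD replicate 2 the highest dried library and A replicate 2 the highest control.

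Aquaporins held 1 up-regulated and 5 down-regulated of 16, the latter near the share of all genes, and 3 were down-regulated without A replicate 1 or without AD replicate 3. The plasma membrane channel PIP2-7 (KZV41124) stood at 18.8, 24.5 and 15.5 FPKM in AD and 212, 141 and 263 FPKM in A (log2 fold change −3.30, SE 0.53, adjusted p = 6.2e-06), which was a smaller fall than in SD/F (3.33, adjusted p = 0.0023). The tonoplast channel TIP3-2 (KZV32782), of a kind found in seed vacuoles, rose from almost nothing, at 16.9, 12.9 and 25.2 FPKM in AD and 0, 0 and 0.23 FPKM in A (4.12, SE 0.45, adjusted p = 9.5e-09), and more than in FD/F (2.17, adjusted p = 0.029). TIP1-1-like KZV47195, the most abundant aquaporin, was not called, at 8437, 7319.8 and 8766 FPKM in AD and 10072, 10429.8 and 7200.1 FPKM in A (−0.16, SE 0.38, adjusted p = 0.76), and its groups overlapped. Genes of wall loosening and pectin held 6 of 117 up-regulated and 33 down-regulated (13 and 29 after scaling). The expansin KZV56967, which loosens cellulose, fell to 4.79, 4.02 and 3.13 FPKM from 110.5, 39.6 and 407 FPKM (−4.64, SE 0.85, adjusted p = 3.9e-05). The xyloglucan endotransglucosylase XTH23 (KZV40225), which cuts and rejoins xyloglucan, rose to 943, 1160.3 and 1733 FPKM from 8.28, 10.7 and 16.8 FPKM (6.64, SE 0.65, adjusted p = 1.1e-09) and exceeded SD/F by 4.15, adjusted p = 0.0019. Of 60 potassium and other ion channel genes 17 were up-regulated and 12 down-regulated. AKT1-like KZV15003, an inward potassium channel, rose to 23.7, 23.6 and 23.8 FPKM from 4.03, 1.76 and 4.31 FPKM (2.56, SE 0.30, adjusted p = 3.6e-08), more than in FD/F (2.04, adjusted p = 0.0019).

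Actin-7 and IAA14 are shown with the primers that the study used to measure them by quantitative PCR, since both fell here and the primers fix which transcripts are meant. Each amplified product is 185 bases long for actin-7 and 183 for IAA14.
KZV22541 actin-7 forward: tggtaatatcgttctcagtggtggtt
KZV22541 actin-7 reverse: acatctgctggaaggtgctaagg
KZV17830 IAA14 forward: gaatatgtaccaatcctaccaacaactctc
KZV17830 IAA14 reverse: agcatccagtcaccatccttatcttc
Actin-7 (KZV22541), a filament protein of growing tissue in Arabidopsis, stood at 169, 129 and 155 FPKM in AD and 808, 789.5 and 498 FPKM in A (log2 fold change −2.18, SE 0.23, adjusted p = 5.7e-09), and no AD library reached any A library. Its fall was larger than in SD/F (−1.19, adjusted p = 0.011). IAA14 (KZV17830), a repressor of auxin-responsive genes, was picked after its values were seen, and stood at 58.4, 53.4 and 49.2 FPKM in AD and 195, 87.8 and 163 FPKM in A (−1.38, SE 0.30, adjusted p = 0.00029). The call of IAA14 was lost after scaling, at a log2 fold change of −0.99. Tubulins and actins together held 2 up-regulated and 5 down-regulated of 20.

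Lists of nuclear genes follow, to be read beside the 13.1% of all genes up-regulated and 26.2% down-regulated. Cell division genes held 12 of 94 up-regulated and 14 down-regulated (14 and 13 after scaling, which turns the direction), and 6 were up-regulated without AD replicate 2. Cyclin D1-1 (KZV14553), which starts the cell cycle, fell to 0.88, 0.23 and 0 FPKM from 19.04, 19.8 and 12.7 FPKM (log2 fold change −3.76, SE 0.50, adjusted p = 3.3e-07). Histone-modifying enzymes held 9 and 12 of 79 (14 and 7 after scaling, which turns the direction). Of 16 histones 1 was up-regulated and 4 down-regulated, and the 1 was H2B-like KZV47189, at 324, 405 and 350.3 FPKM in AD and 6.42, 3.24 and 2.76 FPKM in A (6.19, SE 0.98, adjusted p = 4.9e-06). DNA methylation and demethylation held 1 up-regulated and 4 down-regulated of 17 (1 and 2 after scaling), and 0 up-regulated without A replicate 2, A replicate 3 or AD replicate 1. The methyltransferase CMT3 (KZV43016), which maintains CHG methylation, stood at 5.37, 10.1 and 6.19 FPKM in AD and 8.99, 1.58 and 1.75 FPKM in A (0.95, SE 0.76, adjusted p = 0.32). DRM2-like KZV32941, which sets methylation anew, was at 11.6, 16.4 and 9.16 FPKM in AD and 11.9, 11.4 and 11.7 FPKM in A (0.05, SE 0.25, adjusted p = 0.91). Groups overlapped for both, and neither was called. Subunit 5A of RNA polymerase V (KZV38328), of RNA-directed DNA methylation, fell to 3.02, 2.29 and 3.07 FPKM from 14.9, 14.2 and 25.7 FPKM (−2.30, SE 0.34, adjusted p = 1.4e-06). The polymerase's subunit 7 (KZV48207) fell to 4.65, 2.64 and 1.28 FPKM from 16.1, 7.35 and 20.7 FPKM (−2.01, SE 0.36, adjusted p = 2.3e-05).

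Phenylpropanoid and flavonoid synthesis, which makes lignin, pigments and sunscreens, held 53 of 118 members down-regulated and 12 up-regulated, at 0.344, 0.304 and 0.275% of FPKM in AD and 0.910, 0.795 and 0.695% in A. The anthocyanidin xylosyltransferase KZV57559 stood at 0.23, 0.44 and 1.19 FPKM in AD and 119, 123 and 74.2 FPKM in A (log2 fold change −6.04, SE 0.35, adjusted p = 1.1e-13). A leucoanthocyanidin dioxygenase (G001974), which makes anthocyanidins, stood at 117, 70.7 and 70.7 FPKM in AD and 0.19, 0.31 and 0 FPKM in A (6.19, SE 0.56, adjusted p = 2.4e-10), and exceeded FD/F by 5.01, adjusted p = 3.9e-05 and SD/F by 6.15, adjusted p = 5.6e-06. Laccase-14-like KZV28941, a xylem marker, stood at 535, 509.5 and 426 FPKM in AD and 6.37, 9.86 and 18.2 FPKM in A (5.40, SE 0.75, adjusted p = 5.6e-07). In AD it carried much of the sum of the 27 xylem and secondary wall markers. That sum was 814 to 876 FPKM in AD and 187 to 274 FPKM in A. Of the 20 tested 5 were up-regulated and 3 down-regulated. What part xylem markers have in the lignin genes was not tested.

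Clock genes held 7 up-regulated and 8 down-regulated of 22, and their median of −0.07 became 0.31 after scaling. LUX (KZV47073), of the evening complex, stood at 124, 118 and 99.6 FPKM in AD and 2.47, 3.34 and 15.5 FPKM in A (log2 fold change 4.19, SE 0.46, adjusted p = 8.5e-09). LHY-like KZV33712, a morning factor, stood at 26.9, 24.2 and 63.3 FPKM in AD and 163, 362 and 108 FPKM in A (−2.39, SE 0.62, adjusted p = 0.0019). GIGANTEA (KZV46040), which peaks late in the day in Arabidopsis, stood at 112, 120.4 and 104 FPKM in AD and 23.9, 33.2 and 61.3 FPKM in A (1.59, SE 0.33, adjusted p = 0.00021). No pair of groups overlapped, though A replicate 3 came nearest to AD in all 3 genes. An early flowering 4-like gene (KZV31992), also of the evening complex, fell to 7.36, 3.87 and 1.87 FPKM from 91.2, 83.4 and 112 FPKM (−4.29, SE 0.35, adjusted p = 3.4e-11). The time of day at which leaves were taken is not analysed here, and the hour and drying cannot be told apart in these genes.

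Several further lists were nearly balanced or short. Lipases and phospholipases held 19 up-regulated and 18 down-regulated of 92, cysteine proteases and vacuolar processing enzymes 6 and 6 of 31 (8 and 2 after scaling, and 3 down-regulated without A replicate 3), cellulose synthesis 3 and 3 of 15, and proline and amino acid breakdown 2 and 9 of 22 (3 and 5 after scaling, and 5 down-regulated without A replicate 3). Invertases and their inhibitors held 4 and 1 of 11, the 1 that fell being the acid beta-fructofuranosidase KZV40990, an invertase, at 11.2, 8.78 and 4.93 FPKM in AD and 19.1, 27.2 and 35.6 FPKM in A (log2 fold change −1.63, SE 0.31, adjusted p = 6.7e-05). In the list of wall loosening and pectin the largest fall was that of an inhibitor of the invertase and pectin methylesterase superfamily (KZV26824), at 2.68, 5.57 and 4.41 FPKM in AD and 174, 530.02 and 171 FPKM in A (−5.63, SE 0.76, adjusted p = 3.3e-07). The tonoplast channel TIP4-1 (KZV51145) was 1 of the 5 aquaporins that fell, at 7.72, 4.12 and 6.15 FPKM in AD and 159.7, 46.4 and 86.1 FPKM in A (−3.67, SE 0.54, adjusted p = 1.5e-06). The control values of KZV26824 and KZV51145 spread widely and still lay above every dried value. Markers of phloem summed to 258 to 278 FPKM in AD and 185 to 288 FPKM in A, and flower markers, 11 of 42 of them at 0 in all 6 libraries, to 54.7 to 58.5 FPKM in AD and 56.0 to 97.8 FPKM in A.

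Some genes were listed at 0 in every library of a group, which can be a failed estimate, and they are given without a fold. Of the up-regulated genes 136 were listed at 0 in all A libraries, and of the down-regulated genes 178 in all AD libraries. The initiation factor subunit eIF3A (KZV41115) was listed at 0 in A and at 260.5, 293 and 288 FPKM in AD. S-adenosylmethionine synthetase KZV43682 was listed at 0 in AD and at 881, 493 and 971 FPKM in A. Both code for proteins that most cells use.

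Set beside rapid drying without acclimation, most of the response was shared. Of the genes up-regulated in AD/A 1532 were so in FD/F, 62.6% of the AD/A set and 61.8% of the FD/F set, and 3420 were down-regulated in both, 69.6% and 62.7%. Across all genes tested the 2 sets of log2 fold changes correlated at a Pearson r of 0.729, where genes are not independent points. The interaction AD/A minus FD/F called 824 genes higher (4.4%) and 827 lower (4.41%), of which 267 and 103 had a group wholly listed at 0. After scaling the counts were 989 and 874. The lower count fell to 526 without AD replicate 3, 507 without A replicate 3 and 537 without FD replicate 1. Zeros in FD need care: 33 genes with means of at least 100 FPKM in both A and AD were listed at 0 in all FD libraries. UDP-glycosyltransferase KZV26052 shows a gene that rose in both, at 963, 656 and 603 FPKM in AD and 2.22, 4.19 and 5.46 FPKM in A (log2 fold change 7.25, SE 0.59, adjusted p = 3.3e-11), but less in AD/A (−3.37, adjusted p = 0.0081).

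**Figure D4:**
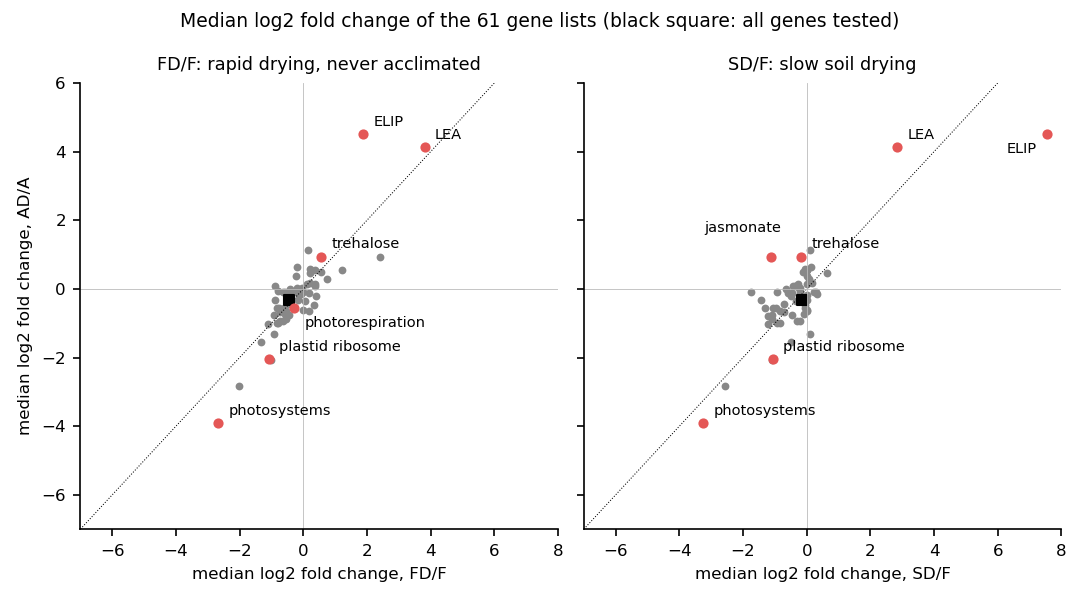
Median log2 fold change of 61 gene lists in AD/A (vertical) against FD/F (left) and SD/F (right), with all genes tested as a black square and equality as a dotted line. ELIPs lie at 4.50 in AD/A and 1.88 in FD/F, and jasmonate genes at 0.92 in AD/A and below 0 in SD/F.

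Against slow drying, AD/A minus SD/F called 1328 genes higher (7.09%) and 2092 lower (11.2%), but 1799 higher and 1410 lower after scaling, so that the larger direction turned. In all 1189 genes were up-regulated in both (48.6% of the AD/A set and 49.2% of the SD/F set). Against the acclimated plants 4 weeks on, AD/A minus A4D/A4 called 41 genes higher (0.219%) and 4 lower (0.0213%), but neither count was stable. Both became 0 without AD replicate 3, without A replicate 2, without A4D replicate 3 and in a fit of the contrast's own libraries, and 3 genes or fewer were higher without AD replicate 2, A replicate 3, A4D replicate 1 or 2, or A4 replicate 1 or 3, or with a pseudocount of 0.1. Without A4 replicate 2, whose mean correlation with its own group was 0.851 against 0.893 and 0.899 for the others, the counts rose to 2055 and 105, and without A replicate 1 they were 52 and 14. Of the genes up-regulated in AD/A 1613 were so in A4D/A4, 65.9% of the AD/A set and 83.0% of the A4D/A4 set. The genes named next carry that instability, with adjusted p close to the threshold. Glutamate decarboxylase KZV32808, which makes the amino acid GABA, was among the 41, at 348, 316 and 398 FPKM in AD and 13.9, 32.4 and 7.21 FPKM in A (log2 fold change 4.47, SE 0.49, adjusted p = 9.9e-09; difference 3.11, adjusted p = 0.046). A CBS domain protein (KZV45422) was another, at 844, 1003 and 990.3 FPKM in AD and 14.5, 24.8 and 18.8 FPKM in A (5.57, SE 0.44, adjusted p = 2.6e-11; difference 2.83, adjusted p = 0.046). Translationally-controlled tumor protein KZV54811, a growth protein, was also among them, at 548, 789 and 683 FPKM in AD and 9.19, 11.7 and 16.1 FPKM in A (5.68, SE 0.43, adjusted p = 1.3e-11; difference 2.86, adjusted p = 0.042). Galactinol synthase KZV17819, the first step to raffinose, was 1 of the 4, at 82.97, 47.6 and 28.5 FPKM in AD and 143, 175 and 104 FPKM in A (−1.49, SE 0.30, adjusted p = 0.00013; difference −1.99, adjusted p = 0.041).

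Promoter methylation was measured in 1 pooled bisulfite library a group, so A and AD are compared without replicates and without a test. Over 18547 promoters the mean methylation level was 54.1% in A and 52.6% in AD for CG sites, 44.4 and 43.3% for CHG sites and 16.9 and 15.5% for CHH sites, where H is any base but G. The median change was −1.32 percentage points in CG, −0.74 in CHG and −0.80 in CHH. A gain of at least 20 points was seen in 332 promoters for CG, 238 for CHG and 67 for CHH, and a loss of that size in 424, 194 and 75. The table gives no coverage for a single promoter, so the precision of these fractions is not given. The promoter rows carry FPKM columns that match the preceding gene of the expression table (Pearson r 0.93 for A and 0.932 for AD across genes) and hardly the gene named in the row (0.075 and 0.089), so both ways of joining are given. Joined to the preceding gene, up-regulated, down-regulated and uncalled genes gained 20 points in CG in 1.99, 1.94 and 1.97% and lost them in 2.84, 2.39 and 2.75%. Joined to the named gene, they gained them in 2.06, 2.60 and 2.34% and lost them in 1.93, 2.79 and 3.09%.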

How the data were processed

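Leaf RNA of 13 groups in triplicate (39 libraries) and 1 pooled bisulfite library a group were read from the deposited tables. The FPKM values were made by the authors with HISAT, StringTie 1.0.4, Bowtie2 2.2.5 and RSEM, and the promoter methylation fractions were deposited as 1 value a site type per promoter after BSMAP. The genome build and the strandedness of counting are not given in the sources used here. The tables held no read counts, so count tests were not used, and columns with the authors' own comparisons (fold changes and p-values) were not used either.

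Genes that reached 1 FPKM in 3 or more libraries (18736 of 26693) were fitted on log2(FPKM + 1) with limma 3.58.1 in R 4.3.3 (all 39 libraries, 1 mean a group, trended empirical Bayes), with Benjamini-Hochberg adjustment over all genes tested. Differences between responses were interaction contrasts in that fit. The scripts were tested on simulated data. Tables were handled with data.table (version 1.17.8), Python 3.11.15, pandas 2.3.3 and numpy 2.4.6, and plots with matplotlib 3.10.9. The scaled alternative divides each library by its median ratio to the gene-wise geometric mean. Methylation fractions were turned into percentages, and promoters were counted at a change of at least 20 points.

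Genes were named by rule: in each list up to 4 genes called per direction, with the largest change among those whose higher mean was 10 FPKM or more and whose libraries did not overlap, the 15 largest changes per direction, the 10 largest per direction of each interaction, the 20 most abundant in AD, and any member of the lists for ABA synthesis, ABA receptors, DNA methylation, chlorophyll breakdown and clock. IAA14, and the laccase KZV28941 named as the top xylem marker, fall outside it and were picked after their values were seen. Galactinol synthase KZV14491 was named for its abundance in A, also after its values were seen. Members and lists were chosen with earlier results of these data known, and list patterns were tidied on annotation wording with the tables at hand. Of the genes tested 93 share all values with another gene.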

Additional observations from a re-analysis of the deposited data

Results flagged for a closer look

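Interactions were called between the AD/A response and each of the other responses. AD/A minus FD/F held 824 genes higher and 827 lower, AD/A minus A4D/A4 held 41 and 4, and AD/A minus SD/F held 1328 and 2092, or 1799 and 1410 after scaling, where the larger direction turned. The 41 and 4 fell to 0 without AD replicate 3, A replicate 2 or A4D replicate 3.

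Genes with large differences between responses included the following. Against FD/F, the UDP-glycosyltransferase 73B4-like gene G000627, which attaches sugars to small molecules, stood at 2204, 2154 and 2267 FPKM in AD and 30.1, 41.5 and 39.1 FPKM in A, with log2 fold changes of 5.88 in AD/A and −4.12 in FD/F, a difference of 10.00, adjusted p = 2e-13. KZV22124, annotated as a retrovirus-related Pol polyprotein, stood at 36.3, 84.4 and 36.6 FPKM in AD and 0.33, 0 and 0.43 FPKM in A, with differences of 9.46, adjusted p = 0.0012 from FD/F and 7.76, adjusted p = 0.0047 from SD/F. All AD libraries were above all A libraries for both genes. The reverse held for KZV25429, annotated as SMLII, at 2.41, 0 and 0.88 FPKM in AD and 4.65, 23.6 and 4.57 FPKM in A and a difference of −8.23, adjusted p = 1.7e-08. Copper transport protein CCH-like KZV55287, a copper chaperone, was not called in AD/A itself (log2 fold change −1.76, SE 0.92, adjusted p = 0.12) and rose by 4.57 in FD/F, a difference of −6.33, adjusted p = 0.0016. NIM1-interacting protein KZV51823, which binds a regulator of salicylic acid responses, stood at 0, 0 and 1.59 FPKM in AD and 9.58, 20.7 and 19.4 FPKM in A, a difference of −5.45, adjusted p = 0.0045.

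Against SD/F, the allene oxide cyclase KZV19494 differed by 9.94, adjusted p = 5.6e-06. XTH24-like KZV19427, which remodels xyloglucan, stood at 240.4, 265 and 252 FPKM in AD and 27.6, 15.5 and 52.6 FPKM in A, and changed by −5.17 in SD/F, a difference of 8.28, adjusted p = 4.1e-05. Prolyl endopeptidase-like KZV20103 was not called in AD/A (log2 fold change −1.29, SE 0.74, adjusted p = 0.16), where A replicate 2 was far above the other controls, and differed by −5.78, adjusted p = 0.00028. NF-YA7-like KZV36369, a subunit of a factor that binds CCAAT boxes, and ELIP KZV38649 rose in both responses and less in AD/A, with differences of −5.39, adjusted p = 0.00047 and −4.997 (adjusted p = 0.045). KZV38649 stood at 28.9, 172 and 373 FPKM in AD and 1.82, 10.2 and 11.7 FPKM in A, the widest spread among dried libraries of the ELIPs named here.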

How the results depend on the processing

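The replicate numbers did not pair the libraries, since same-numbered AD and A libraries deviated together at correlations of only 0.06, −0.002 and 0.005. With a replicate block AD/A gave 2440 genes up and 4926 down, 2427 and 4894 of them shared with the fit without the block, AD/A minus A4D/A4 gave 22 higher and 2 lower, and no call of a named gene changed.

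For AD/A, a pseudocount of 0.1 gave 2527 up and 5117 down, no filter 2353 and 4769, a fit of the 6 libraries alone 2412 and 4582, and scaling 3289 and 3794. With 1 library of AD or A left out in turn the ranges were 2201 to 2486 up and 4197 to 5100 down. Without A4 replicate 2, which enters only through the shared spread, the counts were 2512 and 5024. No called change of a named gene changed sign under any alternative run, but scaling turned the larger direction of several list counts, as given above, and of AD/A minus SD/F (1799 higher and 1410 lower). Among 499 named genes scaling took away 17 calls and added 6, and it moved 30 of 122 list counts by over 1.5 times. AD/A minus FD/F ranged from 583 to 807 higher and 507 to 871 lower with 1 of its own libraries left out. For AD/A minus SD/F the ranges were 1041 to 1319 and 1424 to 2245. Without A4 replicate 2, which is in neither contrast, the counts were larger, at 1069 and 959 for FD/F and 1555 and 2363 for SD/F. AD/A minus A4D/A4 was the least settled: 0 to 2055 higher and 0 to 105 lower with 1 library left out, 3 and 0 with a pseudocount of 0.1, 22 and 19 after scaling, and 0 and 0 in a fit of its own libraries. The cause was not tested.

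Promoters that gained methylation rose from 332 to 1121 at a minimum change of 10 points and 2437 at 5 points in CG, from 238 to 825 and 1840 in CHG, and from 67 to 278 and 799 in CHH. Those that lost it rose from 424 to 1822 and 4807, from 194 to 1173 and 3893, and from 75 to 697 and 3112. Lower thresholds admit more promoters by construction.

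Limits are these. The tables used here give no read counts, so counting error could not be given. With 3 pools a group the fit borrows its spread from all 39 libraries. An exact 0 may be a failed estimate, near-identical copies may share fragments, and FPKM shares leave the amount of RNA per leaf unmeasured.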
